A study of Mus musculus with 6 samples.

Results

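The genes described here are 36 sarcomere genes whose products sit in the Z-disc, in the M-band, or along titin between them. They were chosen by symbol from a deposited table of 27131 genes, with no measured value in the rule, and each of the 36 symbols had a row. The list was drawn up with earlier results of these data known. Messenger RNA of levator ani/bulbocavernosus muscle (LA/BC, pelvic muscles) was measured in 3 WT mice and 3 mice of genotype 113Q, labelled as SBMA knock-in animals. SBMA stands for spinal and bulbar muscular atrophy, in which the androgen receptor carries a lengthened glutamine tract. All 6 mice were kept on standard chow to 14 weeks of age, and no treatment other than the genotype was named. Each library came from 1 numbered mouse. The labels give no litter, batch, sequence of the altered allele or affected cell type. The comparison of 113Q with WT asks how transcripts of this muscle differ between the genotypes.

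A sarcomere is the contractile unit of a muscle fibre. Z-discs bound it at each end and anchor the thin filaments through alpha-actinin, and the M-band at its middle ties the thick filaments together through myomesins. Titin runs from the Z-disc to the M-band as an elastic ruler, nebulin lies along the thin filament, and desmin filaments link neighbouring Z-discs. Many of these proteins exist as relatives made preferentially in fast or in slow fibres.

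Estimated counts summed to between 43581087 and 73873481 per library, the lowest total being that of WT mouse 1. Values are given in CPM, depth-adjusted counts after TMM scaling, which sets libraries to a common level over most genes. The scaling factors were 0.768 to 0.794 in WT and 1.26 to 1.32 in 113Q, and the 20 most abundant genes held 30.8% to 32.7% of counts in WT against 14.1% to 15.7% in 113Q. Scaling by library totals alone shifted the median log2 difference of all genes by 0.72, so each direction below is relative to the TMM scale, and members whose direction differed with library totals are named. The tissue label was checked against fast-fibre markers: all 10 were present, and their summed level was 211601 to 226189 CPM in WT and 49918 to 61759 CPM in 113Q. The sum of the smooth muscle markers moved the other way, at 369, 642 and 849 CPM in WT mice against 3011, 1932 and 1388 in 113Q mice. Of these 7 genes 1, Acta2, passed the test. Smtn overlapped between groups, with a log2 fold change of 0.01. Epithelial transcripts stood apart in WT mouse 2, 113Q mouse 2 and 113Q mouse 3, with sums of 45.1 to 78.9 CPM against 1.25 to 2.25 CPM in the other libraries. Epcam, Krt8 and Cldn4 were each at 0 in at least 1 library. Fibroblast markers summed to 778 to 1497 CPM in WT and 1227 to 1636 CPM in 113Q, and none of 6 passed. All 6 endothelial markers were lower, in the direction of most members (median log2 fold change −0.67, and 0.06 with library totals), with sums of 337 to 442 CPM in WT and 237 to 244 CPM in 113Q. Of 6 satellite cell markers 3 were higher (Myf5, 4.53 times, Sdc4 and Pax7), with sums of 156 to 191 CPM in WT and 222 to 232 CPM in 113Q. Whether these other cell types play a part in the members' differences was not tested. The alternatives with a term for epithelial transcripts, or without the libraries that hold them, concern the epithelium only. Removing those libraries leaves only mouse 1 in the 113Q group. That mouse had the highest smooth muscle sum and the lowest fast-fibre sum of its group. In these bulk samples fewer fibres of a type and less RNA per fibre cannot be told apart.

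Most of the 36 genes had fewer transcripts in 113Q muscle. Of the 35 members tested, 26 were lower, 2 were higher (the M-band gene Myom3 and the titin-binding gene Ankrd1) and 7 did not pass (edgeR adjusted p, threshold 0.05). Among all 16960 genes tested, 34.6% passed, 18.1% as lower and 16.5% as higher. The members' median log2 fold change was −1.01 beside 0.01 for all genes tested, and −0.29 beside 0.73 with library totals. A fall of 2 times or more was called for 16 members and a rise of that size for 2, beside 5.22% and 5.33% of all genes. The 3 mice of each genotype did not overlap for 27 members lower in 113Q and 2 higher, beside 24.8% and 25.1% of all genes. Of the 36 members, 33 had a mean of at least 5 CPM, and Nebl, with 2 to 20 counts in WT and 8 to 39 in 113Q, was not tested.

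With library totals as the scale, 15 of the 26 falls kept their call: Myom1, Mybpc2, Actn3, Myoz1, Myoz3, Myot, Tcap, Pdlim3, Ankrd23, Synm, Xirp2, Nrap, Cmya5, Lmod3 and Capn3. For 7 others (Ttn, Neb, Mybpc1, Ldb3, Pdlim5, Smpx and Lmod2) the call was lost, and 4 (Myom2, Actn2, Pdlim7 and Des) turned to higher. On that scale 64.9% of all genes were called higher and 4.19% lower, and 8 members were called higher. As a share of all counts, which is the scale of library totals, the 36 genes together held 5.81%, 6.54% and 6.37% in the WT mice. In the 113Q mice they held 4.18%, 4.58% and 4.32%, without overlap. This sum is weighted towards abundant members, which differed among themselves. On that scale the log2 fold changes were −2.37 for Actn3 and −1.94 for Mybpc2, but −0.21 for Ttn, −0.10 for Neb and 0.28 for Des. The sum does not describe each member, since on the same scale 15 were called lower and 8 higher.

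**Figure D1:**
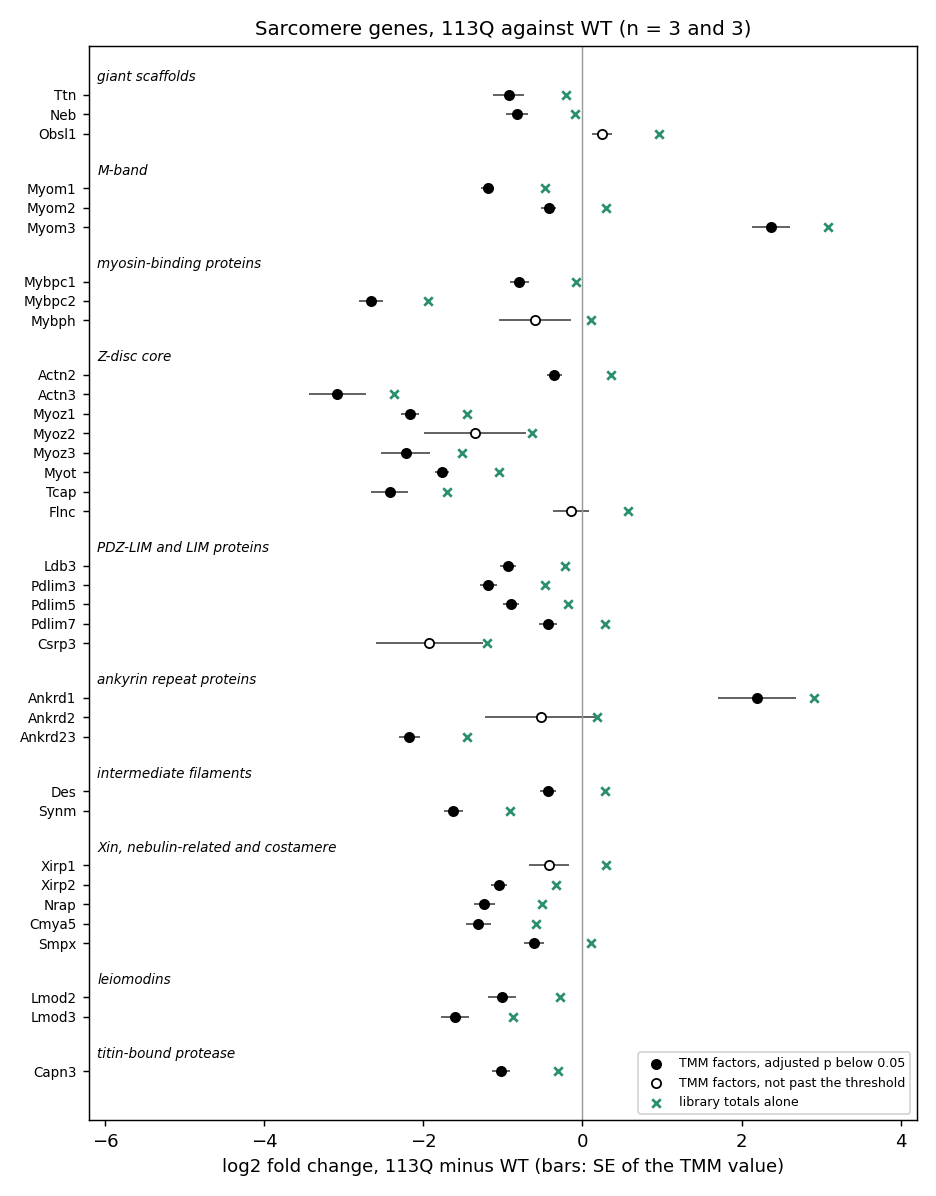
Log2 fold change of 113Q over WT (horizontal axis, TMM-scaled counts; bars are standard errors) for the 35 members tested, 3 mice in each group, with the value under library totals alone as a second mark. Actn3 and Mybpc2 lie farthest to the left, at −3.08 and −2.66, and Myom3 and Ankrd1 stand alone on the right, at 2.37 and 2.19.

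Promoter sequences are shown for 3 sets of related members whose transcripts differed in direction or size of change: myomesins Myom1 and Myom3, myosin-binding proteins Mybpc1 and Mybpc2, and ankyrin repeat genes Ankrd1 and Ankrd23. Each is the RefSeq window from 250 bases before to 50 bases after the start of transcription on GRCm38.p6, the assembly also called mm10, read 5′ to 3′ on the gene's strand. Capitals mark matches on either strand to 3 motifs of muscle promoters: the site of MEF2 factors, the CArG box of serum response factor, and the MCAT element CATTCC of TEAD factors (GGAATG on the other strand).
Myom1, chr17:71019307-71019606, plus strand: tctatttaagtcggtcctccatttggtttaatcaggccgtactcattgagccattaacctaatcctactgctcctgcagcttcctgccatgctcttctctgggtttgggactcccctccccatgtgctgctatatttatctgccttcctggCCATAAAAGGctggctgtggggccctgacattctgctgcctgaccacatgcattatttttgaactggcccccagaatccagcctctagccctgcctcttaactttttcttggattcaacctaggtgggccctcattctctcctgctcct
Myom3, chr4:135759465-135759764, plus strand: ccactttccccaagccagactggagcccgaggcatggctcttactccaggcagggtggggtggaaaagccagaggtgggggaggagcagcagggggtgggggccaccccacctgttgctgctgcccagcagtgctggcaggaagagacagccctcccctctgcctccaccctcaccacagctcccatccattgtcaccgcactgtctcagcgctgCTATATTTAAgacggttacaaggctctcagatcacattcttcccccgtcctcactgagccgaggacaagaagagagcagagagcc
Mybpc1, chr10:88605103-88605402, minus strand: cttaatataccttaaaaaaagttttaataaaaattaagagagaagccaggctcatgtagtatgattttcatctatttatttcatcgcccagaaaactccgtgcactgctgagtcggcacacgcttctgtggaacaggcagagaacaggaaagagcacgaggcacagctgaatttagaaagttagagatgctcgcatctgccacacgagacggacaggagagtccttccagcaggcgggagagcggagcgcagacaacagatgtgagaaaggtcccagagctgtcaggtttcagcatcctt
Mybpc2, chr7:44524620-44524919, minus strand: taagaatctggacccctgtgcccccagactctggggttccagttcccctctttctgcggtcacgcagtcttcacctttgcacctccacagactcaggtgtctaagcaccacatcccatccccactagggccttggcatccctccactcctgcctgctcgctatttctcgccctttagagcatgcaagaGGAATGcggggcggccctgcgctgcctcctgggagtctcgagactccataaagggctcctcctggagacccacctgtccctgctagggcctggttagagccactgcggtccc
Ankrd1, chr19:36119795-36120094, minus strand: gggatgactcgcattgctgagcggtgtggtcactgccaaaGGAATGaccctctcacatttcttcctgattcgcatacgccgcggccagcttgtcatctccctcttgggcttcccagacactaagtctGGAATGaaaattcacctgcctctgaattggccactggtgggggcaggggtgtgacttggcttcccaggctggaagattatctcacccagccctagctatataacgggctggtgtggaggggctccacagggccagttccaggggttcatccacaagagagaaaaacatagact
Ankrd23, chr1:36536507-36536806, minus strand: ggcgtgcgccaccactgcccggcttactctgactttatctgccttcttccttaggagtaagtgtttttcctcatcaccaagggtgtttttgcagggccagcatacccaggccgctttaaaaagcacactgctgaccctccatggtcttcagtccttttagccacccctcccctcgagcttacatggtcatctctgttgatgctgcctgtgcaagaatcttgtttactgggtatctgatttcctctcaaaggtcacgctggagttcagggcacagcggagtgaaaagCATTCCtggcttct

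The windows of each pair held different numbers or kinds of matches. The Myom3 window holds 1 MEF2 site, starting 35 bases before the start of transcription, and no CArG box or MCAT element. The Myom1 window holds 1 CArG box, 99 bases before the start, and neither other motif; it lies 16924 bases from the outermost gene start in GENCODE M21, so it belongs to an inner start. Mybpc2 has 1 MCAT element 62 bases before the start, and Mybpc1 has no match to the 3 motifs. Ankrd1 has 2 MCAT elements, the outer one 210 bases before the start, and this window of Ankrd23 (the gene has 2 windows) has 1 MCAT element 36 bases after it. RefSeq windows were found for 27 of the 36 members. Of these, 5 (18.5%) held a MEF2 site, beside 3.19% of all 32851 windows: Ttn, Myom3, Myoz2, Xirp2 and Capn3. A CArG box was in 2 (7.41% beside 1.63%), an MCAT element in 7 (25.9% beside 14.7%), and an E-box, CANNTG, in 22 (81.5% beside 72.3%). The MEF2 holders include a member that rose (Myom3), 3 that fell (Ttn, Xirp2 and Capn3) and 1 that did not pass (Myoz2). The Capn3 window, like that of Myom1, lies away from the outermost gene start, by 7574 bases. A match is a run of letters, and binding was not measured here.

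The giant scaffolds fell by less than 2 times or did not pass. Ttn, titin, was at 7303, 12789 and 11704 CPM in WT mice against 5480.0, 5762 and 5496 in 113Q mice. All 3 WT mice were above all 3 113Q mice, with WT mouse 1 lower than the other WT mice. The log2 fold change was −0.93 (SE 0.19, adjusted p 0.00867), and −0.21 with library totals (adjusted p 0.366). As a share of all counts Ttn overlapped between groups, at 0.566%, 0.982% and 0.930% in WT and 0.723%, 0.731% and 0.694% in 113Q. Ttn spans chromosome 2, 76703980 to 76982547 (mm10, minus strand), and its exons overlap the antisense-oriented Gm13938. Neb, nebulin, ran at 4815, 6901 and 5851 CPM in WT mice against 3291, 3554 and 3104 in 113Q mice, without overlap. It fell by 0.82 on the log2 scale (SE 0.14, adjusted p 0.00242), but by 0.10 with library totals (adjusted p 0.521). The Ttn to Neb count ratio was 1.52, 1.85 and 2.00 for WT mice and 1.67, 1.62 and 1.77 for 113Q mice, and the groups overlapped (exact permutation p 0.6). Obsl1, a cytoskeletal adaptor related to obscurin, was at 38.6 to 56.3 CPM in WT and 54.0 to 57.9 CPM in 113Q, and did not pass (log2 fold change 0.25, adjusted p 0.176). It passed as higher without WT mouse 1 (0.39, adjusted p 0.0286) and with library totals (0.97, 0.000246).

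The 3 myomesin genes, which encode the cross-links of the M-band, went in different directions. Myom3, on chromosome 4 from 135759715 to 135815564, was at 120.0, 68.7 and 129 CPM in WT mice against 573, 516 and 558 in 113Q mice. Every 113Q mouse was above every WT mouse, and Myom3 rose 5.18 times (log2 fold change 2.37, SE 0.24, adjusted p 0.000542). Myom3 is known as the myomesin of slow and intermediate fibres. Myom1, the myomesin found in all striated muscle, fell from 3109, 3411 and 3335 CPM to 1438, 1457 and 1424 CPM, a drop of 2.28 times (log2 fold change −1.19, SE 0.08, adjusted p 4.16e-05). The 113Q mice had a mean of 1439.9 CPM with an SD of 16.6 CPM. Exons of Myom1 overlap those of Myl12a on the other strand. Myom2, the M-protein of fast fibres, was at 2877, 3166 and 3302 CPM in WT mice against 2249.6, 2397 and 2309 in 113Q mice. It fell 1.34 times on the TMM scale (log2 fold change −0.43, adjusted p 0.00716), and turned to a log2 rise of 0.29 with library totals (adjusted p 0.0182).

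Relative to each other, within each library and so without any scaling, the myomesins differed between genotypes in every mouse. For each count of Myom3 there were 25.9, 49.6 and 25.8 counts of Myom1 in the WT mice and 2.51, 2.82 and 2.55 in the 113Q mice, a ratio 12.2 times lower (exact permutation p 0.1, the smallest that 3 mice against 3 allow). Myom2 over Myom1 was likewise higher in every 113Q mouse, with ratios of 0.926, 0.928 and 0.990 for WT mice and 1.56, 1.64 and 1.62 for 113Q mice (exact permutation p 0.1).

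Of the myosin-binding proteins, the fast-fibre form fell most. Mybpc2, fast myosin-binding protein C (chromosome 7, 44501699 to 44524656), was at 9697, 9713 and 10400.3 CPM in WT mice against 1246, 1864 and 1623 in 113Q mice. It fell 6.30 times (log2 fold change −2.66, SE 0.15, adjusted p 1.78e-05), and by 1.94 on the log2 scale with library totals. Mybpc1, the slow form (chromosome 10, 88518279 to 88605152), was at 5202, 4128 and 5539 CPM in WT mice against 2875, 2882 and 2821 in 113Q mice. Its fall was 1.73 times (log2 fold change −0.79, SE 0.12, adjusted p 0.00145), and the call was lost with library totals (−0.08, adjusted p 0.601). The ratio of Mybpc2 to Mybpc1 counts was 1.86, 2.35 and 1.88 for WT mice and 0.433, 0.647 and 0.575 for 113Q mice, 3.71 times lower without overlap (exact permutation p 0.1). Mybph, myosin-binding protein H, was at 10.7, 4.79 and 16.5 CPM in WT mice against 5.26, 7.14 and 8.75 in 113Q mice. The groups overlapped and it did not pass (log2 fold change −0.60, adjusted p 0.361, and 0.11 with library totals). Mybph was at −0.95 and passed without WT mouse 2 (adjusted p 0.032), and was at −0.13 without WT mouse 3.

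Of the 8 core Z-disc genes 6 were lower and 2, Flnc and Myoz2, did not pass, with a median log2 fold change of −1.97 over the 8. Actn3, the alpha-actinin of fast fibres (chromosome 19, 4861216 to 4877909), was at 8258, 9928 and 7965 CPM in WT mice against 594, 1502 and 993 in 113Q mice. It fell 8.46 times, the largest fall among the members (log2 fold change −3.08, SE 0.36, adjusted p 0.00152). The 113Q mice differed among themselves, mouse 2 being well above mouse 1. Actn2, the alpha-actinin of all fibre types, was at 1162, 1245 and 1251 CPM in WT mice against 913, 896 and 1048 in 113Q mice. Its fall was 1.28 times (log2 fold change −0.36, adjusted p 0.019), and it turned to a log2 rise of 0.36 with library totals (adjusted p 0.00744). The Actn2 call was lost without WT mouse 3, 113Q mouse 1 or 113Q mouse 2 (adjusted p 0.069, 0.0596 and 0.0764). There were 7.11, 7.97 and 6.37 Actn3 counts per Actn2 count for WT mice and 0.650, 1.68 and 0.948 for 113Q mice. This ratio, which no scaling touches, was 7.04 times lower without overlap (exact permutation p 0.1).

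Tcap, telethonin, which caps the Z-disc end of titin (chromosome 11, 98383811 to 98384953), was at 4237, 2986 and 3339.7 CPM in WT mice against 457, 784 and 729 in 113Q mice. It fell 5.36 times (log2 fold change −2.42, SE 0.23, adjusted p 0.000391). Its partner titin fell 1.90 times. The myozenins bind calcineurin, alpha-actinin and filamin at the Z-disc. Myoz1, the fast-fibre form, fell 4.49 times, from 4048, 4011 and 3530.2 CPM to 760.2, 943 and 877 CPM (log2 fold change −2.17, SE 0.11, adjusted p 1.29e-05). Myoz3 fell 4.67 times, from 615, 567 and 602 CPM to 82.3, 188 and 112 CPM (adjusted p 0.00285). Myoz2, the slow and heart form, was close to absent in every mouse, at 1.47 to 5.35 CPM in WT and 0.581 to 2.20 CPM in 113Q, and did not pass (log2 fold change −1.35, adjusted p 0.159). Myoz2 passed as lower without WT mouse 2 (adjusted p 0.0492) and with a replicate block (0.00812). The Myoz1 to Myoz2 and Myoz3 to Myoz2 ratios overlapped between groups (exact permutation p 0.5 for each).

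Myot, myotilin, which binds alpha-actinin and filamin, was at 1308, 1365 and 1239 CPM in WT mice against 368, 392 and 388 in 113Q mice. This 3.41-fold fall had the smallest adjusted p of the members, 9.7e-06 (log2 fold change −1.77, SE 0.08). Flnc, the muscle filamin that is linked to repair of strained Z-discs, was at 661, 1215 and 748 CPM in WT mice against 729, 765 and 879 in 113Q mice. The groups overlapped, WT mouse 2 stood above all others, and Flnc did not pass (log2 fold change −0.14, adjusted p 0.668). Its direction changed to 0.17 without that mouse and to 0.58 with library totals (adjusted p 0.0487).

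**Figure D2:**
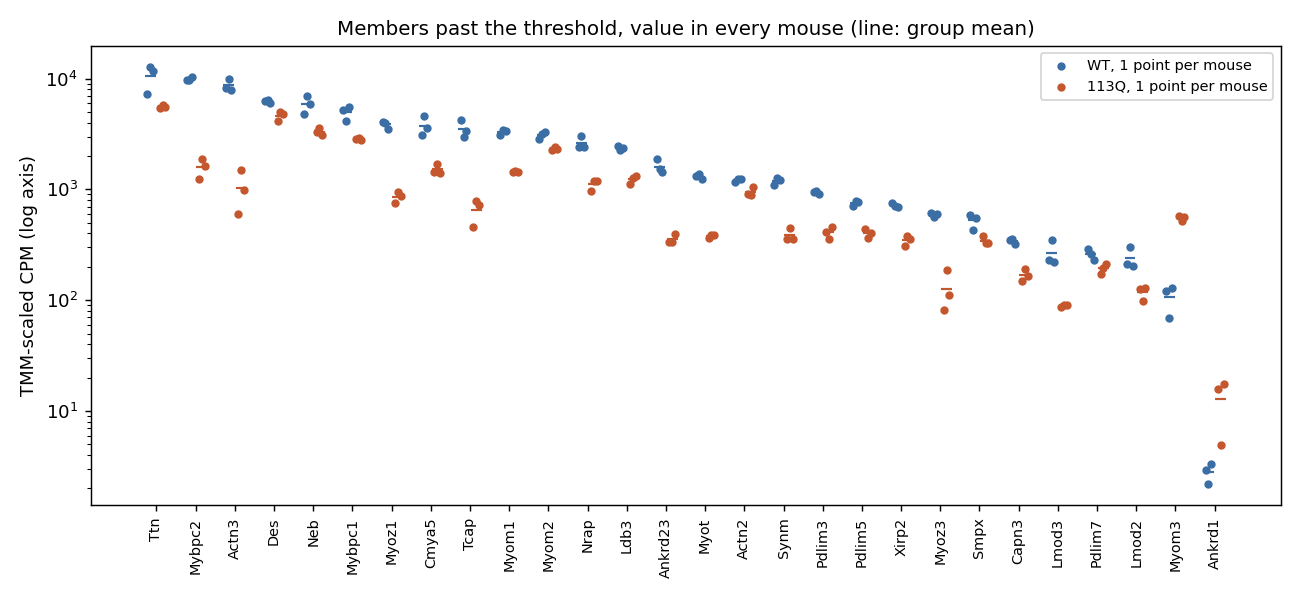
TMM-scaled CPM (log axis) of the 28 called members in each of the 6 mice, 1 point per mouse, with a line at each group mean. The 113Q points lie below the WT points for 26 members and above them for Myom3 and Ankrd1. Among these members the 113Q mice spread most widely for Ankrd1, Actn3 and Myoz3.

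PDZ-LIM proteins bind alpha-actinin at the Z-disc, and 4 of the 5 members of the PDZ-LIM and LIM group were lower. Ldb3, known as ZASP or cypher, was at 2479, 2246 and 2365 CPM in WT mice against 1117, 1257 and 1332 in 113Q mice (log2 fold change −0.94, adjusted p 0.000256). Pdlim3, also called ALP, was at 945, 961 and 907 CPM in WT mice against 416, 359 and 462 in 113Q mice (log2 fold change −1.19, adjusted p 0.000126). Pdlim5, also called ENH, was at 712, 787 and 768 CPM in WT mice against 443, 367 and 404 in 113Q mice (log2 fold change −0.90, adjusted p 0.000295). No 113Q mouse reached a WT mouse for any of these. With library totals only Pdlim3 kept its call, and Ldb3 and Pdlim5 had adjusted p of 0.0605 and 0.156. Pdlim7, also called enigma, was at 292, 260 and 231 CPM in WT mice against 173, 196 and 212 in 113Q mice. Its fall on the TMM scale (log2 fold change −0.43, adjusted p 0.0192) turned to a log2 rise of 0.29 with library totals (adjusted p 0.0333). The Pdlim7 call was lost without WT mouse 1, 113Q mouse 1 or 113Q mouse 2 (adjusted p 0.0557, 0.0632 and 0.0588), and with a replicate block (0.0623).

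Csrp3, the muscle LIM protein of slow fibres and heart, was at 51.6, 122 and 50.3 CPM in WT mice against 18.4, 8.18 and 32.5 in 113Q mice. All 113Q mice were below all WT mice, but the spread within each group was wide and the test was not passed (log2 fold change −1.92, SE 0.68, adjusted p 0.0947). The heart markers Myh6, Nppa and Nppb were at most 0.0781 CPM in every library. All 6 heart markers summed to 118 to 180 CPM in WT and 186 to 363 CPM in 113Q, mostly from Actc1, which skeletal muscle also makes, and none of the 3 tested passed. Of 7 slow-fibre markers tested, 1 was lower, 2 were higher and 4 did not pass. Myl3, a slow and ventricular myosin light chain, fell 21.3 times, from 6224 ± 805 to 292 ± 46.3 CPM (SD, n = 3 each, edgeR adjusted p 3.8e-06). Tnnt1, slow troponin T, rose 2.89 times but stayed at a low level, 0.829 to 1.75 CPM in WT and 2.71 to 5.16 CPM in 113Q. Atp2a2, the slow calcium pump, rose 2.28 times, with 66.9 to 88.3 CPM in WT and 164 to 186 CPM in 113Q. Myh7, the slow myosin heavy chain, was at 1.13 to 1.44 CPM in WT and 0.179 to 1.67 CPM in 113Q and did not pass.

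The 3 muscle ankyrin repeat genes, whose products bind titin's elastic part, differed from one another. Ankrd23, also called DARP (chromosome 1, 36530188 to 36536883), was at 1872, 1515 and 1436 CPM in WT mice against 335, 338 and 394 in 113Q mice, and fell 4.52 times (log2 fold change −2.18, SE 0.13, adjusted p 2.19e-05). Ankrd1, known as CARP, a stress-responsive gene of heart and muscle (chromosome 19, 36111961 to 36120099), was at 2.93, 2.19 and 3.29 CPM in WT mice against 15.9, 4.97 and 17.6 in 113Q mice. It rose 4.58 times (log2 fold change 2.19, SE 0.49, adjusted p 0.0171), with no overlap. The level stayed low throughout, at 99 to 171 counts in WT and 445 to 1638 counts in 113Q, with 113Q mouse 2 the lowest of its group. The Ankrd1 call was lost when WT mouse 1, WT mouse 2 or WT mouse 3 was left out (adjusted p 0.0681, 0.077 and 0.0547) and with limma voom (0.126). Ankrd2, the form of slow fibres, was at 1.91 to 2.52 CPM in WT and 0.402 to 3.18 CPM in 113Q and did not pass (log2 fold change −0.52, adjusted p 0.613, and 0.18 with library totals). Without 113Q mouse 3, the highest of its group, Ankrd2 was at −1.68 and passed (adjusted p 0.0282). It was at −0.07 without 113Q mouse 1 and −0.27 without 113Q mouse 2, and did not pass. Counts of Ankrd2 per count of Ankrd1 were 0.709, 0.871 and 0.767 in the WT mice and 0.0256, 0.190 and 0.182 in the 113Q mice, without overlap (exact permutation p 0.1).

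Of the intermediate filament genes, Synm fell far more than its partner. Des, desmin, was at 6308, 6459 and 6047 CPM in WT mice against 4105, 5043 and 4777 in 113Q mice. Its fall was 1.35 times (log2 fold change −0.43, adjusted p 0.0114), and it turned to a log2 rise of 0.28 with library totals (adjusted p 0.021). Synm, synemin, which joins desmin filaments and links them to the membrane, was at 1096, 1266 and 1219 CPM in WT mice against 354, 450 and 358 in 113Q mice, 3.08 times lower (log2 fold change −1.62, SE 0.12, adjusted p 5.25e-05). The Synm to Des count ratio was 0.174, 0.196 and 0.202 for WT mice and 0.0863, 0.0892 and 0.0749 for 113Q mice (2.28 times lower, exact permutation p 0.1). Both are also made in smooth muscle, whose summed marker level was higher in each 113Q mouse than in any WT mouse. Exons of Synm overlap those of Ttc23 on the other strand.

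Of 5 genes for Xin-repeat, nebulin-related and costamere proteins, 4 were lower. Xirp2, a Xin-repeat actin-binding protein, was at 752, 710.4 and 698 CPM in WT mice against 307, 378 and 357 in 113Q mice (log2 fold change −1.05, adjusted p 0.000153). Its relative Xirp1, known from damaged and remodelling fibres, was at 125, 213 and 122 CPM in WT mice against 96.1, 113 and 135 in 113Q mice. The groups overlapped and Xirp1 did not pass (log2 fold change −0.42, adjusted p 0.249, and 0.30 with library totals). Nrap, a nebulin-related anchoring protein of assembling myofibrils, was at 2433, 3029.9 and 2400.3 CPM in WT mice against 967, 1187 and 1192 in 113Q mice (log2 fold change −1.23, adjusted p 0.000267). Cmya5, myospryn, which binds desmin and titin, was at 3093, 4574 and 3595 CPM in WT mice against 1445, 1698 and 1408 in 113Q mice (log2 fold change −1.31, adjusted p 0.000467). None of the WT mice came as low as a 113Q mouse for Nrap or Cmya5. Smpx, a small costamere protein, was at 588, 432 and 554 CPM in WT mice against 377, 326 and 329 in 113Q mice. It fell 1.53 times (log2 fold change −0.61, adjusted p 0.00693), but its value was 0.11 with library totals (adjusted p 0.482).

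Leiomodins start and lengthen actin filaments at their slow-growing ends. Lmod3, the skeletal form, was at 231, 353 and 223 CPM in WT mice against 86.0, 89.6 and 90.3 in 113Q mice, 3.03 times lower (log2 fold change −1.60, SE 0.18, adjusted p 0.000514). Lmod2, better known from heart, was at 210.1, 302 and 202 CPM in WT mice against 127, 97.8 and 129 in 113Q mice, 2.02 times lower (log2 fold change −1.01, SE 0.18, adjusted p 0.00477). WT mouse 2 was the highest mouse for both. Lmod3 exceeded Lmod2 in counts in every WT mouse (ratios of 1.10, 1.17 and 1.11) and was under it in every 113Q mouse (0.676, 0.916 and 0.700), 1.49 times lower (exact permutation p 0.1). Capn3, the muscle calpain that docks on titin, was at 347, 359 and 320.1 CPM in WT mice against 149, 192 and 164 in 113Q mice (log2 fold change −1.02, adjusted p 0.000277). Capn3 exons overlap Ganc on the same strand, so reads there can be credited to either gene.

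In all, 12 ratios between relatives were computed, and 7 of them kept the groups apart. Each of the 7 had an exact permutation p of 0.1, which became 0.171 after Benjamini-Hochberg adjustment over the 12, so none could pass 0.05 with 3 mice against 3. The other 5 overlapped, with exact permutation p of 0.2 to 0.6. In the 7 separated ratios the member known from fast fibres was lower relative to its partner for Actn3 over Actn2 and Mybpc2 over Mybpc1. Myom2, a fast-fibre gene, was instead higher relative to Myom1. The members known from slow fibres were divided too. Myom3 was 12.2 times higher relative to Myom1, and Ankrd2 was 8.13 times lower relative to Ankrd1. Of that last pair, Ankrd1 was called higher and Ankrd2 did not pass.

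**Figure D3:**
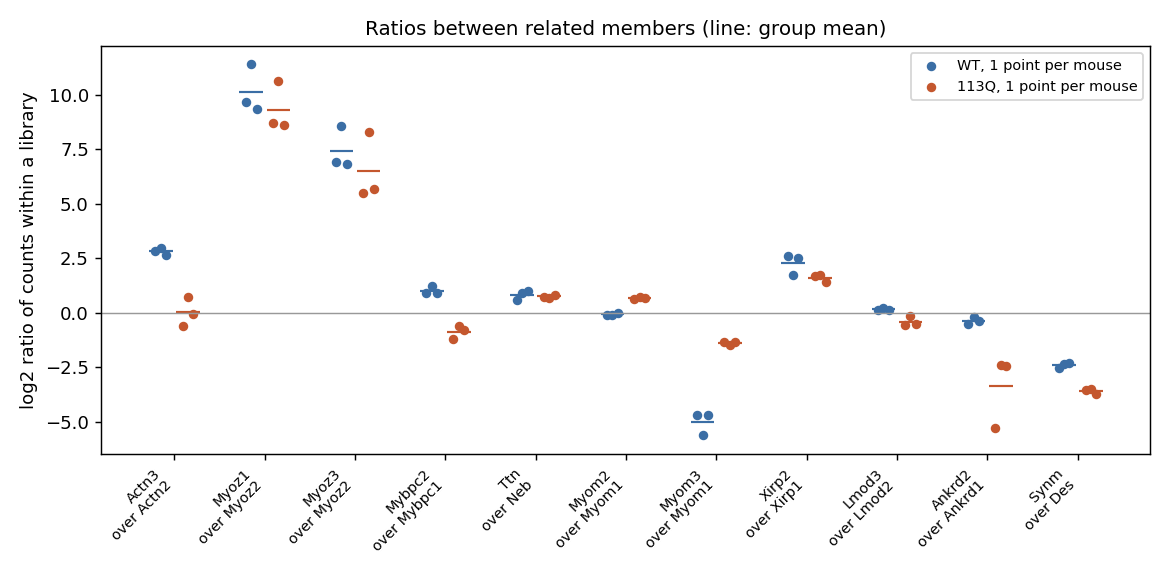
Log2 ratio of the counts of related members within each mouse (vertical axis, 1 point per mouse, WT and 113Q), which does not depend on library scaling. The WT and 113Q means are 2.83 and 0.02 for Actn3 over Actn2, 1.01 and −0.88 for Mybpc2 over Mybpc1, and −5.01 and −1.39 for Myom3 over Myom1, each without overlap; Neb over Nebl, with Nebl near 0 counts, is not drawn.

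The order of the members by level changed as well. On the scale of CPM per kilobase of the longest annotated transcript, which allows levels of different genes to be compared, Tcap led in WT at 3714, followed by Actn3 at 3019, Myoz1 at 2997, Mybpc2 at 2752 and Des at 2071. In 113Q Des led at 1533, followed by Mybpc1 at 729, Tcap at 693, Myoz1 at 667 and Myom2 at 457. Actn3 went from rank 2 to rank 7, and Actn2, its relative, from rank 14 at 405 to rank 8 at 316. In 113Q these alpha-actinins lay close to each other, Actn3 being at 357 with a wide spread between mice, whereas in WT they differed by more than that spread. Myom3 climbed from rank 30 at 19.0 to rank 18 at 98.5, but remained below Myom1, at 582 and 255, and below Myom2, at 614 and 457. Ttn stayed at rank 24, at 99.2 and 52.2, and Nebl was the lowest in both groups. Over the 35 members tested, the log2 level per kilobase and the log2 fold change had a Pearson r of −0.45 and a Spearman rho of −0.41. For log2 transcript length these were 0.14 and 0.24. These are descriptions across genes that share the same 6 libraries.

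**Figure D4:**
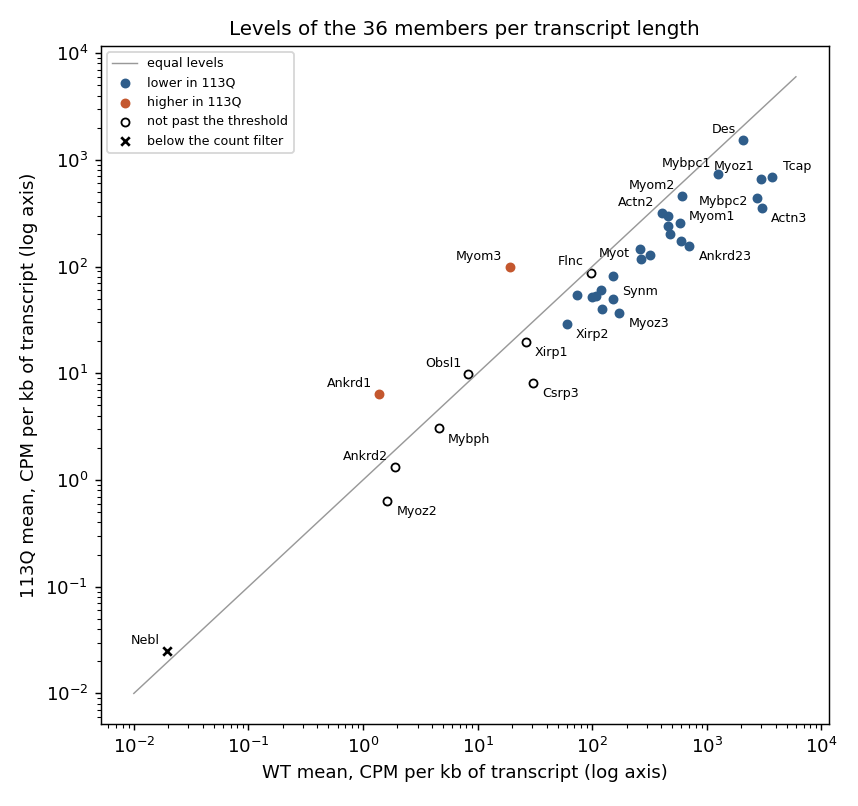
Mean level of each member in WT (horizontal) and in 113Q (vertical), in CPM per kilobase of transcript, both axes logarithmic, with the line of equal level. Most members lie below the line, and Myom3 and Ankrd1 are the called members above it.

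Other genes of the same structures, from lists drawn up by function with earlier results of these data known, differed partly in the same direction. Among 28 other Z-disc and titin-associated genes, 25 were tested: 20 were lower, 2 were higher (Trim55, a titin-kinase-associated ubiquitin ligase, log2 fold change 0.30, and Sorbs2, a Z-disc adaptor, 0.56) and 3 did not pass. The shares over all genes tested were 18.1% lower and 16.5% higher. The list's median log2 fold change was −0.69, and 0.04 with library totals, where 8 were lower and 10 higher. Fhl1, a four-and-a-half LIM protein that binds titin, fell from 7078 ± 1197 CPM (SD, n = 3) to 1188 ± 63.6 (n = 3), log2 fold change −2.57 (adjusted p 1.29e-05). Tmod4, tropomodulin of skeletal muscle, fell from 939 ± 87.0 to 189.6 ± 22.5 CPM (log2 fold change −2.31, adjusted p 1.17e-05). Ky, a Z-disc protein that binds filamin C, fell 4.70 times (adjusted p 0.000179). Smaller falls were those of Fhl2, 2.73 times (4.29e-05), Myo18b, 2.29 times (6.13e-05), and Synpo2, 2.24 times (9.99e-05). Mybpc3 and Mybphl, heart relatives of the myosin-binding members, had 0 to 2 counts per library and were not tested.

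Genes of sarcomere assembly and upkeep were divided. Of 16 chaperones and adaptors, 7 were lower, 3 were higher and 6 did not pass. Among all genes tested 18.1% were lower and 16.5% higher. The median log2 fold change of the list was −0.05 (0.67 with library totals, where 3 were lower and 10 higher). The methyltransferases Smyd2 and Smyd1 fell 2.86 and 1.77 times (adjusted p 2.05e-05 and 0.000238) and the small heat shock protein Hspb7 2.17 times (0.000214). Dnajb6 fell 1.55 times (adjusted p 0.000542) and Unc45b, a myosin chaperone, 1.51 times (0.00085), and with library totals their log2 fold changes were 0.08 and 0.12 (adjusted p 0.38 and 0.188). Kbtbd13, an adaptor of muscle ubiquitin ligases, fell 2.63 times (adjusted p 0.00102). Higher by log2 fold changes were Hsp90aa1, a chaperone of myosin folding, at 0.91 (adjusted p 0.000334), Hspb1 at 0.88 (0.00413) and Cryab, a desmin chaperone, at 0.49 (0.0161).

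None of the relatives of the members from outside striated muscle passed as lower. Of 15 tested, 4 rose and 0 fell in the edgeR test, beside 16.5% and 18.1% of all genes tested. An unadjusted p below 0.05 was reached by 5, and the median log2 fold change was 0.16. Csrp1, a smooth muscle LIM protein, was at 36.5, 65.3 and 81.9 CPM in WT mice against 318, 213 and 159.8 in 113Q mice (log2 fold change 1.91, adjusted p 0.0163). Actn1, the non-muscle alpha-actinin, was at 9.50, 19.1 and 16.3 CPM in WT mice against 54.7, 44.9 and 32.1 in 113Q mice (1.54, adjusted p 0.0113). Csrp2 and Pdlim4 rose by 0.89 and 0.44 on the log2 scale (adjusted p 0.00664 and 0.0149). Flna, filamin A, was at 92.1, 203 and 264 CPM in WT mice against 838, 542 and 375 in 113Q mice (1.65, adjusted p 0.0585). In the 113Q mice Csrp1, Actn1 and Flna had the same order as the smooth muscle actin Acta2, at 867, 566 and 425 CPM. Of all genes tested, 19.9% had that order. In the WT mice Acta2 was at 46.4, 126 and 184 CPM, an order found in 15.1% of all genes tested. Csrp1, Flna and Lmod1 shared it, and Actn1, Csrp2, Pdlim4 and Vim did not. The part of smooth muscle in the difference of these genes was not tested.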

How the data were processed

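The authors deposited 1 table of estimated counts (expected counts, fragments credited to each gene, not scaled to depth), made with Cuffdiff 2.1.1 on mm10 with TopHat2 2.0.9 and Bowtie2 2.1.0 named beside it, per the submitters' processing notes. The annotation is not given in the sources used here, nor is the strand setting. Of the values in a library, 5.38% to 5.96% were fractional, and all were rounded. Exons of 14 members overlap another annotated gene, 11 on the opposite strand, where reads cannot be assigned without strand.

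Groups follow the genotype label, and CPM are TMM-scaled. The test was edgeR 4.0.16 (robust quasi-likelihood F test, two-sided, filterByExpr with a minimum count of 10, Benjamini-Hochberg over 16960 genes, threshold 0.05). Data simulated with planted changes served to check their recovery only, not false calls or the choice of scaling. A standard error is the fitted log2 difference over the root of its F statistic. Count ratios add 0.5 to each count. Alternatives were DESeq2 1.42.0, limma 3.58.1 (voom), RLE factors, library totals, other filters, unrounded values, leaving out each mouse, a replicate block, and a term for or removal of libraries with epithelial transcripts. The members and lists were chosen with earlier results of these data known. Mouse values are printed for called members of at least 5 CPM and those whose direction changed with scaling. Up to 6 genes of each further list with the smallest p are named. Other genes named (Obsl1, Csrp3, Kbtbd13, Hspb1, Cryab, Trim55, Sorbs2, Flna, Lmod1, Vim, Mybpc3, Mybphl and marker genes) were chosen after their values were seen. In those lists 3 genes were matched by an older symbol. Coordinates are from GENCODE M21 on mm10, promoter windows from RefSeq on GRCm38.p6.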

Additional observations from a re-analysis of the deposited data

How the results depend on the processing

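Of 560 member fold changes recomputed under 16 alternatives, 515 kept direction and side of the threshold, 21 lost a call, 13 gained one and 11 changed direction. Library totals gave 11015 genes higher and 710 lower, 8 members higher and 15 lower, 10 and 8 of the other Z-disc genes, 10 and 3 of the chaperones, and 15 relatives higher. It reversed Myom2 (0.29), Mybph (0.11), Actn2 (0.36), Flnc (0.58), Pdlim7 (0.29), Ankrd2 (0.18), Des (0.28), Xirp1 (0.30) and Smpx (0.11). The libraries without epithelial transcripts (2 WT, 1 113Q, whose spread is assumed to be that of WT) gave 1300 genes higher and 1827 lower, 1 other Z-disc gene and 2 relatives higher, and Flnc at 0.049, and 4 members lost their calls: Ttn (adjusted p 0.269), Myom2 (0.0683), Actn2 (0.087) and Pdlim7 (0.057). Mybph (0.0267), Myoz2 (0.0209), Csrp3 (0.000572) and Ankrd2 (log2 fold change −2.51, adjusted p 0.0144) gained one there. Leaving out 1 mouse at a time gave 2004 to 2559 genes higher and 2312 to 2843 lower, 1 to 2 members higher and 24 to 28 lower, 1 to 2 other Z-disc genes higher, and 3 to 5 chaperones higher (5 without WT mouse 1); Flnc ran from −0.31 to 0.17, the last without WT mouse 2, and the log2 Ttn to Neb ratio difference ran from −0.19 to 0.0068, the last without WT mouse 3. Limma voom called 1 member higher. Calls were gained by Csrp3 and Myoz2 with DESeq2 (adjusted p 0.0157 and 0.036) and by Xirp1 with a term for epithelial transcripts (0.00893). The causes were not tested. With a replicate block 2154 genes were higher and 2583 lower, 26 members were lower (Pdlim7 lost its call, adjusted p 0.0623, and Myoz2 gained one, 0.00812), 2 higher, and 1 other Z-disc gene was higher. After removal of each group's mean, mice of the same number correlated at 0.079, 0.142 and −0.285. Pairs of unlike number ran from −0.317 to 0.321. With 3 mice per group these values cannot show whether mice of the same number share a litter or batch, and the labels give neither. Nebl, with 2 to 39 counts, was too shallow to test.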

Other observations

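In the 113Q group, mouse 1 had the lowest and mouse 2 the highest CPM for 13 of the 35 members tested (37.1%), beside 18% of all genes tested, a pattern chosen after its values were seen. They were Ttn, Obsl1, Myom2, Mybpc2, Actn3, Myoz1, Myoz3, Myot, Tcap, Des, Synm, Xirp2 and Capn3. Of the 10 fast-fibre markers 4 had that order too: Myh4, a myosin heavy chain, at 2036, 5064 and 2917 CPM, Pvalb, the calcium buffer parvalbumin, at 295, 785 and 499.7 CPM, and Ckm and Atp2a1. The other 6 (Myh1, Mylpf, Tnnt3, Tnni2, Tnnc2 and Acta1) did not. For another 6 members (Actn2, Myoz2, Pdlim3, Csrp3, Ankrd1 and Lmod2) mouse 2 was instead the lowest and mouse 3 the highest (17.1%, beside 10.8% of all genes). CPM rose from mouse 1 through mouse 2 to mouse 3 for 9 members (25.7%, beside 20.8%). The reverse order was held by 0 members, beside 19.9% of all genes. These orders were not tested.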
